A study of Mus musculus with 6 samples.

Results

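The transcripts of 10 mouse genes that make, load or regulate microRNAs were followed in differentiating ES cells. These were Drosha, Dgcr8, Xpo5, Dicer1, Tarbp2, Ago1, Ago2, Lin28a, Lin28b and Trim71, out of 18193 genes with a probe set of their own on the array. They were chosen by name, with earlier results of these data known. Every probe set that the platform annotation assigns to one of them alone was used, which gave 23 of the 45037 probe sets. The brightest probe set of a gene, averaged over all arrays, was taken as its main one. Because 8 of the genes had more than 1 probe set, the others served as a check, while Ago1 and Lin28b had 1 each.

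The cells were A2.miR200c, mouse ES cells in which doxycycline switches on a genomic cluster of miR-200c and miR-141 that had been placed in A2lox cells by Cre recombination. The cells were grown as embryoid bodies in Petri dishes with 10% FCS, after 1 passage without feeder cells. Induced dishes received 500 ng/mL doxycycline on days 2 and 4, untreated dishes received none, and on days 3, 4 and 5 the embryoid bodies were profiled on Affymetrix MOE430 2.0 arrays. There was 1 array for each treatment and day, 3 induced and 3 untreated. No array held doxycycline-treated cells without the inducible cluster, so effects of the drug and of the microRNAs cannot be told apart. These arrays do not measure the mature microRNAs.

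A microRNA is cut from a long primary transcript in the nucleus by Drosha, an RNase III that works with the RNA-binding protein Dgcr8. Exportin 5, encoded by Xpo5, carries the hairpin to the cytoplasm, where Dicer and its partner Tarbp2 cut out a duplex, and an Argonaute protein keeps 1 strand and uses it to find target mRNAs. In ES cells the RNA-binding proteins Lin28a and Lin28b block the maturation of the let-7 family, and Trim71, also called Lin41, is a let-7 target that is itself highly expressed in pluripotent cells. Lin28 proteins contact a GGAG motif in the let-7 hairpin. Lin28a recruits the uridylyltransferases Tut4 and Tut7, after which the exonuclease Dis3l2 degrades the tailed hairpin.

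The sequences of the induced microRNAs and of the let-7 family that Lin28 acts on are given to show what these proteins handle, with RefSeq sequences of build GRCm38.p6. In the mature sequences the capitals mark the seed, bases 2 to 8, which pairs with target mRNAs. The induced pair lies on chromosome 6, minus strand (miR-200c-3p at chr6:124718324-124718346 and miR-141-3p at chr6:124717917-124717938). Their seeds differ at 1 of 7 positions.
mmu-miR-200c-3p: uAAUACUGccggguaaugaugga
mmu-miR-141-3p: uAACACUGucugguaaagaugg
mmu-let-7a-5p: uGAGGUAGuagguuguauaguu
mmu-let-7g-5p: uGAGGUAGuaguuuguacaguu

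All 9 mature let-7 and miR-98 sequences of the 5p arm in the table shared the seed GAGGUAG. In the hairpins the capitals mark the letters GGAG, searched on the transcript strand only. GGAG stood in 9 of the 12 let-7 and miR-98 hairpins (75%) and in 447 of all 1005 mouse hairpins (44.5%), so a match is common and is a description of the letters only. Hairpins of let-7g (chr9:106178840-106178927, plus strand) and let-7a-1 (chr13:48538179-48538272, minus strand) held it near the 3p arm, while that of let-7b (chr15:85707319-85707403, plus strand) did not.
Mirlet7g: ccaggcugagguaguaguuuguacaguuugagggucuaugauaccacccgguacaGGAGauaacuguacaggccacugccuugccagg
Mirlet7a-1: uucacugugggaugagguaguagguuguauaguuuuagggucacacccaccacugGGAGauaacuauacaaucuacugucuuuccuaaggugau
Mirlet7b: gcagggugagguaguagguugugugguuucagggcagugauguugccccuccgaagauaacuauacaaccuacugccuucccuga

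Values are model-based intensities on a linear scale, and differences are of log2(intensity + 50), which damps low values. Levels of different genes cannot be compared, because probe sets differ in their response. A background level of 36.7 was set from 78 chemosensory receptor genes that these cells are not known to use. Of the 23 probe sets, 20 were above it on all 6 arrays and 3 on none. The 3 were 1 of the 3 Drosha sets, 1 of the 4 Dgcr8 sets and the only Lin28b set. The tests covered 9997 genes, 9 of the 10 members among them, and Lin28b did not reach the minimum level for testing. The arrays were alike in scale, with median intensities from 34.51 to 36.94. The intensities of 5 mesoderm genes summed to 223, 3813 and 12354 on induced days 3, 4 and 5, and to 266, 9130 and 13034 on untreated days 3, 4 and 5. On day 5 Aplnr was the largest part of the sums, at 5860 induced and 6124 untreated. Kdr (1763 against 3158), Pdgfra (698 against 1330) and Mesp1 (660 against 709) were lower under induction on day 5. Mixl1 (3373 against 1714) was higher, so the close totals hide differences in both directions. The 3 primitive ectoderm genes summed to 5260 induced and 1046 untreated on day 5. The summed intensity of 6 pluripotency genes was 18721, 13833 and 7605 on induced days 3, 4 and 5, and 19218, 12719 and 3274 on untreated days 3, 4 and 5. The sums differed between the treatments on day 5 for pluripotency and mainly on day 4 for mesoderm. In such bulk samples fewer cells of a type cannot be told apart from less RNA per cell.

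**Figure D1:**
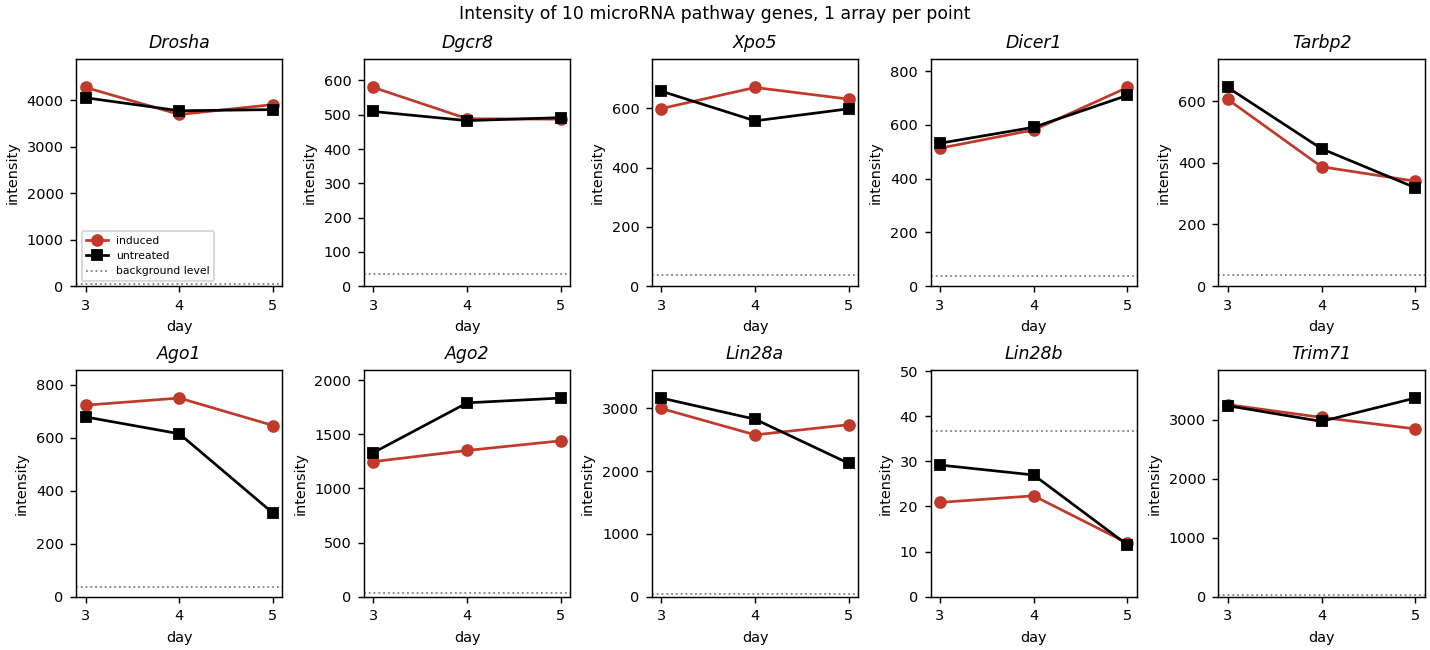
Intensity (linear axis from 0) of the main probe set of each of the 10 genes on days 3, 4 and 5, induced in red and untreated in black, 1 array per point, with the background level of 36.7 dotted. On day 5 Ago1 read 646 induced and 315 untreated, and Lin28b lay below the dotted line on all arrays.

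In their main probe sets, transcripts of the machinery that cuts and exports microRNA precursors differed little between induced and untreated cultures. For Drosha, Dgcr8, Xpo5, Dicer1 and Tarbp2 no daily difference of the main probe set was larger than 0.245 on the log2 scale. Some other probe sets went further, with -0.48 on day 4 for Dgcr8 (1422981_at), -0.27 on day 4 for Dicer1 (1427941_at) and -0.39 on day 5 for Xpo5 (1428560_at). None of the 9 members tested passed limma for induction over days 3 to 5 (adjusted p over all genes tested), and 0% of the 9997 genes did. At an unadjusted p under 0.05 there was 1 member, Ago2, against 8.42% of all genes. The daily differences kept 1 sign over the 3 days for 2 of the 9 members, Ago1 and Ago2, against 33.6% of all genes tested.

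Drosha (Entrez Gene 14000) read 4275, 3694 and 3907 on induced days 3, 4 and 5, and 4054, 3774 and 3799 on untreated days 3, 4 and 5. The treatments overlapped and their mean log2 difference was 0.03 ± 0.05 (SD, n = 3 days), with a 95% interval from -0.07 to 0.13. Its partner Dgcr8, the double-stranded RNA-binding subunit that recognises the primary transcript, read 580, 488 and 487 induced, against 509, 483 and 492 untreated. The day 3 gap was its widest, and the interval of the mean difference ran from -0.14 to 0.25. A second Dgcr8 probe set (1435439_at) gave 0.06 ± 0.05. Another, 1422981_at, gave -0.05 ± 0.38, being higher on days 3 and 5 and 1.40-fold lower on day 4.

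Xpo5, the export receptor for hairpins, read 599, 671 and 631 induced and 658, 558 and 599 untreated. It was lower on day 3 and higher on days 4 and 5 under induction. Its other probe set (1428560_at) read 636, 485 and 424 induced, against 717, 577 and 573 untreated, and was lower on all 3 days, by 1.31-fold on day 5. The probe sets of Xpo5 thus disagreed in direction, with mean differences of 0.06 and -0.26.

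Dicer1, the gene of the RNase III that cuts the hairpin, rose with time in its main probe set. It read 514, 581 and 740 on induced days 3, 4 and 5, and 532, 591 and 710 on untreated days 3, 4 and 5. In this set the treatments ran side by side, and day 5 exceeded day 3 by 0.44 ± 0.08 (SE; limma adjusted p = 0.015). The other set, 1427941_at, at 197, 149 and 180 induced and 186, 190 and 216 untreated, did not show the rise. Its change over both treatments was 0.03 (limma adjusted p = 0.843), with -0.10 induced and 0.17 untreated, so the rise rests on 1 of the 2 probe sets. Under induction 1427941_at was 1.05-fold higher on day 3, 1.20-fold lower on day 4 and 1.15-fold lower on day 5.

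Tarbp2, whose protein steadies Dicer on its substrate, showed the clearest change with time among the members. Its main probe set read 606, 387 and 340 induced, against 644, 446 and 320 untreated. Day 3 was the highest and day 5 the lowest in both treatments. The change from day 3 to day 5 was -0.75 induced and -0.91 untreated, and the limma estimate over both was -0.83 ± 0.10 (SE, adjusted p = 0.0050). The other probe set, 1423616_at, read 507, 403 and 358 induced and 508, 394 and 320 untreated, and fell too, by 0.52 (adjusted p = 0.011). With induction the mean difference was -0.06 for the main set and 0.06 for the other.

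**Figure D2:**
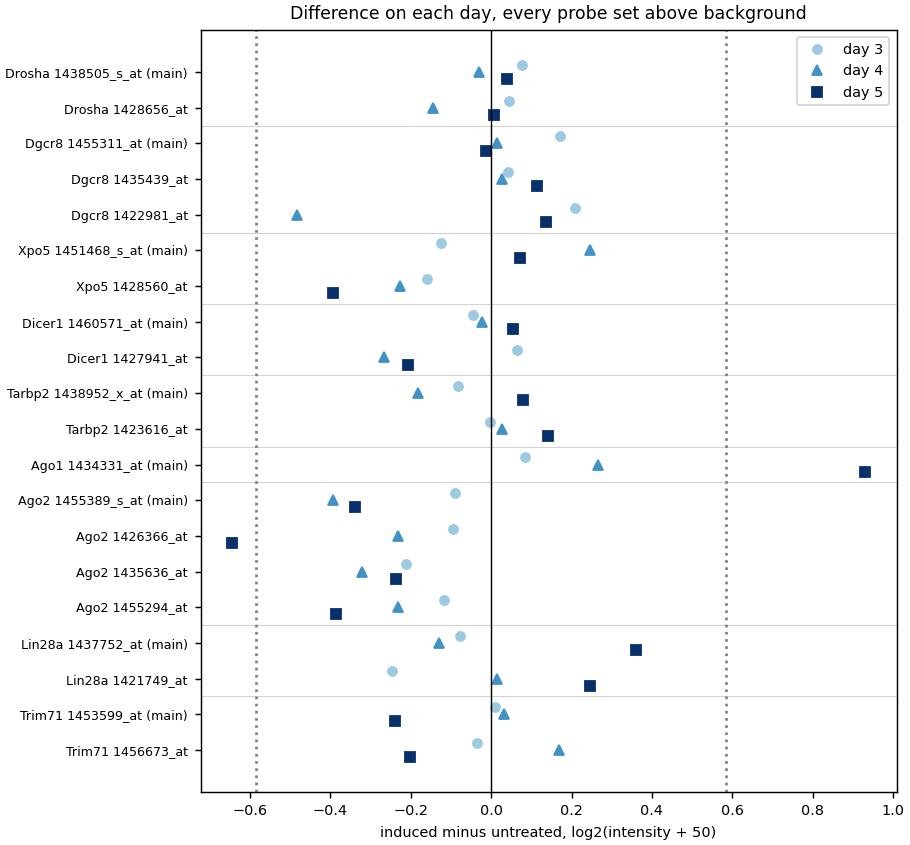
Induced minus untreated difference of log2(intensity + 50) on days 3 (circles), 4 (triangles) and 5 (squares) for the 20 probe sets above background on all arrays, grouped by gene, with dotted lines at 1.5-fold. All 12 Ago2 points lie left of 0, and the day 5 point of Ago1 at 0.93 lies farthest right.

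The Argonaute genes Ago1 and Ago2 lay on opposite sides of their untreated values, though neither passed limma for induction. Ago1 was higher and Ago2 lower in induced cultures on each of the 3 days, as were 19.3% and 14.3% of all genes tested. Both proteins hold mature microRNAs, and Ago2 can also cut a fully paired target. No member was past 1.5-fold on days 3 and 4, and on day 5 Ago1 alone was, against 0.29%, 2.42% and 8.75% of all genes on those days.

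Ago1 (Entrez Gene 236511) read 723, 750 and 646 on induced days 3, 4 and 5, against 679, 615 and 315 on untreated days 3, 4 and 5. Untreated day 5 was the lowest of the 6 arrays by far, and the remaining 5 lay between 615 and 750. In descending order the arrays were induced day 4, induced day 3, untreated day 3, induced day 5, untreated day 4 and untreated day 5, and with 1 array each the neighbours among the first 5 carry no error that could separate them. The log2 difference was 0.09 on day 3, 0.27 on day 4 and 0.93 on day 5, where it was 1.91-fold. With induction 5.24% of genes were past 1.5-fold upward on day 5, and 2.3% had a difference at least as large as that of Ago1. From day 3 to day 5 Ago1 changed by -0.15 in induced and by -0.996 in untreated cultures. The change of its difference per day was 0.42 ± 0.10 (SE; unadjusted p = 0.0068), but over all genes tested it did not pass limma (adjusted p = 0.207). Neither did any other member, and 2 of 9, Ago1 and Lin28a, were at an unadjusted p under 0.05, against 13.2% of all genes. Over the 3 days the mean difference was 0.43, and 0.18 without day 5. With 1 probe set for Ago1, no second reading within the array was at hand.

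Ago2 (Entrez Gene 239528) read 1247, 1350 and 1440 on induced days 3, 4 and 5, and 1331, 1790 and 1834 on untreated days 3, 4 and 5. Only the untreated day 3 array fell within the range of the induced ones. Averaged over the days it differed by -0.27 ± 0.16 (SD, n = 3 days) on the log2 scale, with an interval from -0.48 to -0.07 and an unadjusted p of 0.017 (limma adjusted p = 0.573).

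The 3 other Ago2 probe sets were lower under induction on each day as well, so that 12 of 12 readings pointed the same way. Probe set 1426366_at read 1469, 1034 and 922 induced, against 1572, 1223 and 1469 untreated, and was 1.56-fold lower on day 5. Probe set 1435636_at read 801, 869 and 871 induced, against 935, 1099 and 1036 untreated, and its 3 induced readings lay below all 3 untreated ones. In 1455294_at the readings were 530, 534 and 561 induced, against 579, 636 and 750 untreated, again without overlap. The share of all probe sets separated in this way is not given here. Among 590 genes with exactly 4 probe sets above background, 7 (1.19%) had every set lower on all 3 days and 10 (1.69%) had every set higher. Probe sets of a gene share the same RNA and are not replicates of the treatment, and this count was made after the values had been seen. The change over time was less clear, because the main Ago2 set rose by 0.32 from day 3 to day 5 (adjusted p = 0.0495) and the next brightest had a change of -0.37 that did not pass (adjusted p = 0.099).

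**Figure D3:**
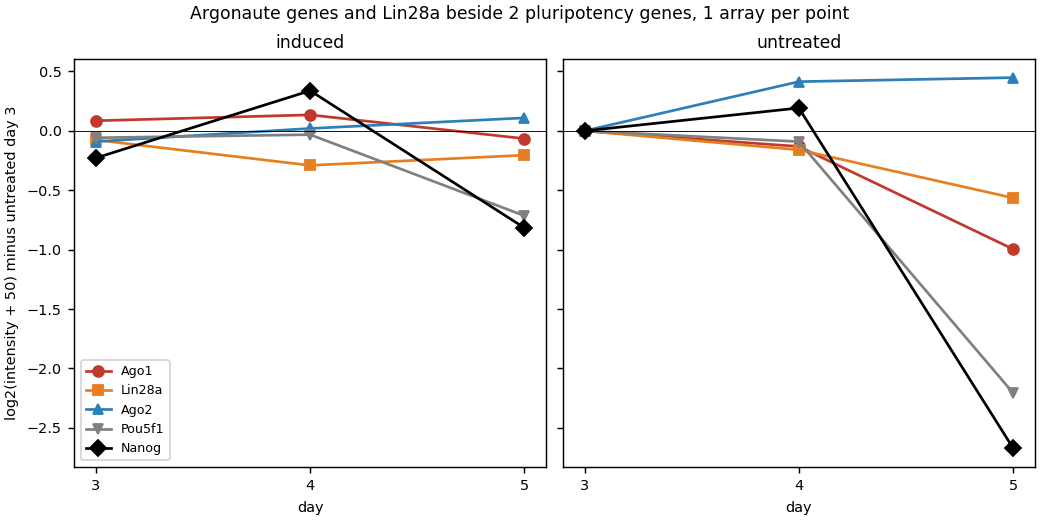
Log2(intensity + 50) of Ago1, Lin28a, Ago2 and the pluripotency genes Pou5f1 and Nanog minus the untreated day 3 value, by day, induced on the left and untreated on the right, 1 array per point. On induced day 5 Ago1 stood at -0.07, Lin28a at -0.20 and Pou5f1 at -0.71, against -0.996, -0.56 and -2.21 on untreated day 5.

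Lin28a, the RNA-binding protein gene that marks pluripotent cells, was far above background in both treatments and lowest on untreated day 5. Its main probe set read 2998, 2578 and 2740 on induced days 3, 4 and 5, against 3164, 2827 and 2124 on untreated days 3, 4 and 5. Under induction it was slightly lower on days 3 and 4 and 1.28-fold higher on day 5. The other probe set, 1421749_at, read 2254, 2771 and 2434 induced and 2683, 2741 and 2043 untreated, and was 1.19-fold higher on day 5. Over the 3 days the mean difference was 0.05 ± 0.27 (SD, n = 3 days), so the sign of day 5 did not hold on the other days. Without day 5 the estimate was -0.10. The change of the difference per day was 0.22 ± 0.08 (SE; unadjusted p = 0.041, limma adjusted p = 0.353).

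Lin28b, the paralog of Lin28a, was below background. Its single probe set read 20.9, 22.4 and 11.9 induced and 29.2, 27.0 and 11.5 untreated, all below the background level. No direction is given for it, and whether the transcript was absent or this probe set did not report it was not tested.

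Trim71, a ubiquitin ligase and RNA-binding protein of the TRIM-NHL family that promotes growth of early cells, differed little between the treatments until day 5 in its main probe set. It read 3261, 3043 and 2849 on induced days 3, 4 and 5, and 3241, 2976 and 3372 on untreated days 3, 4 and 5. Days 3 and 4 were nearly equal, and on day 5 it was 1.18-fold lower under induction. Its other probe set, 1456673_at, read 1308, 1290 and 1268 induced and 1341, 1141 and 1467 untreated. That set was 1.12-fold higher under induction on day 4 and 1.15-fold lower on day 5. For the main set the mean difference had an interval from -0.24 to 0.10 and the change from day 3 to day 5 one from -0.28 to 0.14.

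Over differentiation itself, 3 of the 9 members passed limma between day 3 and day 5, with Dicer1 and Ago2 higher and Tarbp2 lower on day 5, against 39.9% of all genes tested. At an unadjusted p under 0.05 there were 5 of 9, against 50.6%. The median change of the members was -0.11, against 0.00 over all genes. In 7 of the 9 the change had the same sign in both treatments, the exceptions being the main sets of Xpo5 and Trim71. The share of all genes tested with 1 sign in both treatments is not given here, so this count is a description only. Drosha at -0.11 (adjusted p = 0.121), Ago1 at -0.57 (adjusted p = 0.088) and Lin28a at -0.35 (adjusted p = 0.089) did not pass. A second Drosha set, 1428656_at, fell by 0.43 (adjusted p = 0.016), and the other Xpo5 set, 1428560_at, fell by 0.42 (adjusted p = 0.025), with -0.53 induced and -0.30 untreated. Drosha also passed with quantile normalization (-0.16, limma adjusted p = 0.038) and with the mean of all probe sets (-0.27, limma adjusted p = 0.033). Tarbp2 alone kept its call under every alternative tried. The call of Ago2 was lost in 6 of them and that of Dicer1 in 3, both without day 4 among others.

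**Figure D4:**
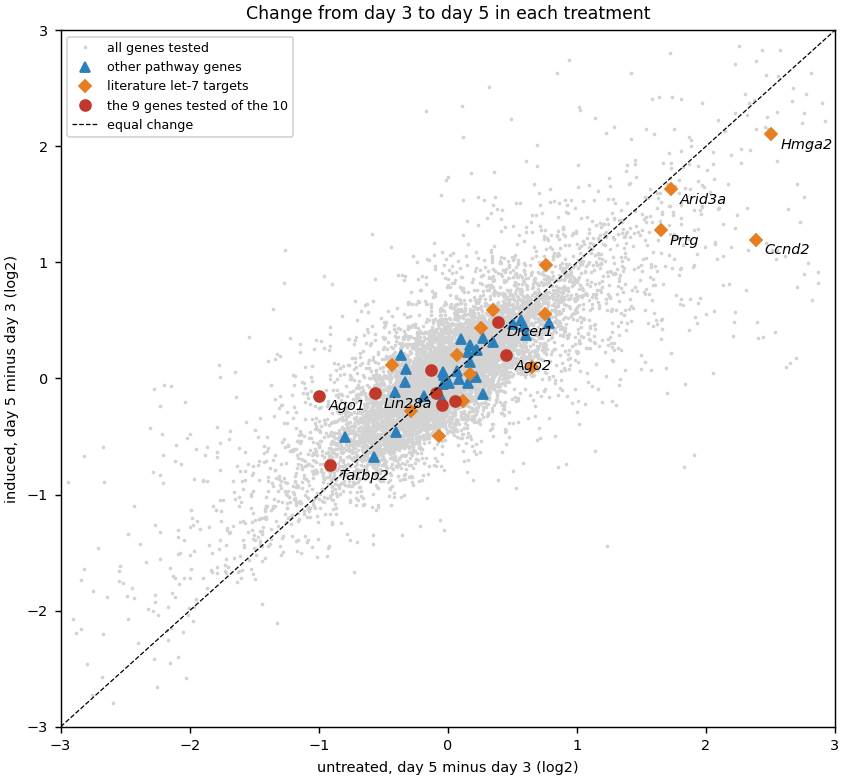
Change of log2(intensity + 50) from day 3 to day 5 in induced (vertical) and untreated (horizontal) cultures, for the 9 members tested (red circles), 31 other pathway genes (blue triangles), 15 literature let-7 targets (orange diamonds) and all genes tested (grey), with a dashed line at equal change and 103 genes outside the plotted range. Ago1 lies above the line at -0.15 induced and -0.996 untreated, and Ccnd2 lies below it at 1.20 induced and 2.39 untreated.

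Other genes of the pathway were described from chosen lists of processing partners, silencing effectors, and tailing and decay factors, of which 31 were tested. These lists too were chosen with earlier results of these data known. None passed limma for induction, 2 had an unadjusted p under 0.05 (8.42% of all genes), and their median mean difference was -0.03, against 0.01 over all genes. Past 1.5-fold there were 0 on days 3 and 4 and 1 on day 5, against 0.29% of all genes on day 3, 2.42% on day 4 and 8.75% on day 5.

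Dcp2, which removes the cap of mRNAs on their way to decay, was the lowest with induction among the silencing effectors. It read 1135, 1094 and 1104 on induced days, and 1364, 1552 and 1522 on untreated days. No induced array reached any untreated one, and the share of all genes separated in this way is not given here. Dcp2 differed by -0.40 ± 0.12 on average (SD, n = 3 days), with a limma unadjusted p of 0.0024 (adjusted p = 0.573). Mov10, an Argonaute-associated helicase, was the gene past 1.5-fold on day 5, at 515 induced and 286 untreated. Tnrc6a, which links Argonaute to the deadenylases, differed by -0.13 ± 0.23 and Ipo8, an importin that binds Argonautes, by 0.13 ± 0.15. Of the remaining Argonaute genes, given for completeness and not by the rule, Ago3 read 75.9, 99.3 and 73.2 induced and 102, 101 and 71.1 untreated, and Ago4 reached at most 43.2 on any array. The largest differences among the processing partners were those of Adar, an RNA editing enzyme (0.10 ± 0.26), Prkra, a second Dicer partner (-0.09 ± 0.13), the RNA-binding protein gene Khsrp (-0.08 ± 0.18) and Srrt, which helps bring primary transcripts to the microprocessor (-0.07 ± 0.05).

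With time, 10 of the 31 genes rose and 4 fell (limma, adjusted over all genes), against 20.6% and 19.2% of all genes. The enzymes that add the tail to hairpins were among those that rose. Tut4 read 1514, 2030 and 2092 on induced days 3, 4 and 5, and 1702, 2136 and 2590 on untreated days 3, 4 and 5, a change of 0.52 from day 3 to day 5 (adjusted p = 0.0077). Tut7 rose by 0.63 (adjusted p = 0.011) and Tent2, an enzyme that adds single bases to microRNA ends, by 0.53 (adjusted p = 0.0083). Dis3l2, which degrades tailed pre-let-7, had a change of -0.44 (adjusted p = 0.042), from low levels of 89.2 induced and 82.0 untreated on day 3. Tut4 differed by -0.18 ± 0.12 with induction, Dis3l2 by 0.11 ± 0.11, Tut7 by -0.08 ± 0.15 and Snd1, a nuclease that takes part in microRNA decay, by -0.05 ± 0.03. Among the partners Srrt fell by 0.62 (adjusted p = 0.0037), and Prkra (0.49), Hnrnpa1 (0.23), Ddx17 (0.23) and Ddx5 (0.19) rose, the last of these a helicase of the microprocessor. Ipo8 (-0.65) and the cochaperone Fkbp4 (-0.17) fell, and Cnot7 (0.49), a deadenylase, Pan3 (0.33) and Tnrc6c (0.31) rose.

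Genes described in the literature as let-7 targets were read beside the Lin28 genes. This list was also chosen with earlier results of these data known. Its shares beside those of all genes, here and for induction below, are thus a description only. Of 15 tested, 8 rose between days 3 and 5 and none fell, against 20.6% of all genes rising, with a median change of 0.38. Hmga2, a chromatin protein gene with many let-7 sites, rose most. It read 1466, 3193 and 6475 on induced days 3, 4 and 5, and 1241, 4254 and 7288 on untreated days 3, 4 and 5, a change of 2.31 (adjusted p = 0.0017). The cell cycle gene Ccnd2 (1.79), the DNA-binding protein gene Arid3a (1.68), and Prtg (1.46), a surface protein of the early embryo, followed, and Arid3b (0.87), Tgfbr1 (0.65), Igf2bp3 (0.47) and Sall4 (0.35) rose by less. In 5 of these 8 the change was smaller in induced cultures, a share not compared with that of all rising genes. It was larger in induced cultures for Arid3b (0.98 induced, 0.76 untreated), Igf2bp3 (0.59 and 0.35) and Sall4 (0.43 and 0.26).

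None of the 15 passed limma for induction, and 4 had an unadjusted p under 0.05, against 8.42% of all genes. Their median mean difference was -0.11, against 0.01 over all genes. Ccnd2 read 333, 619 and 827 on induced days, and 385, 893 and 2222 on untreated days, and was 2.59-fold lower on day 5. Myc read 527, 440 and 569 on induced days, and 681, 627 and 1099 on untreated days, and was 1.86-fold lower on day 5. Arid3a differed by -0.36 ± 0.09 and Prtg by -0.29 ± 0.22 (SD, n = 3 days). Nr6a1, an orphan nuclear receptor of the early embryo, went the other way, at 1551 induced and 897 untreated on day 5. Many of these genes have other regulators, and let-7 itself was not measured.

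Genes with the pattern most like that of a member over the 6 arrays were found by Pearson's r, as a description of points that share arrays. For Ago1 these were the laminin gene Lama5, the methyltransferase gene Setd7 (r = 0.999 for both) and the receptor gene Met (r = 0.997). Lin28a was closest to Clcn7 (0.987), the signalling inhibitor gene Spry4 (0.982) and Chd6 (0.982), Tarbp2 to Etf1, Kat6b and Sirt1 (0.999, 0.999 and 0.998), and Ago2 to Pus10, Cct8 and Meis2 (0.991, 0.990 and 0.989). Dicer1 was closest to Eif3h (0.997), Drosha to Mycn (0.990), Dgcr8 to Rpl13a (0.987), Xpo5 to Fam3a (0.946) and Trim71 to Pcyt2 (0.991).

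Set beside the markers, Ago1 had an r of 0.955 with Pou5f1 and 0.932 with Nanog over the 6 arrays, and Lin28a 0.869 and 0.786. Ago2 had -0.642 and -0.550. Ago1, Lin28a, Pou5f1 and Nanog each read lowest on untreated day 5, so that array weighs heavily in these values. With Sox2, another pluripotency gene, Ago1 had 0.850, Lin28a 0.908, Tarbp2 0.902 and Dicer1 -0.893, so high values were not particular to Ago1 and Lin28a. From day 3 to day 5 Pou5f1, the gene of Oct4, changed by -0.66 induced and -2.21 untreated. The 6 pluripotency genes did not all follow it, since Dppa2 changed by -3.64 induced and -3.49 untreated and Dppa4 by -2.72 induced and -2.76 untreated. The summed blood and endothelium markers read 302 induced and 1472 untreated on day 5, all 5 of them above background on some array. The 4 feeder fibroblast markers summed to 170 induced and 727 untreated, mostly from Col1a1, at 89.7 and 577. Postn read 24.8 and 83.2, while Thy1 (22.55 and 28.5) and S100a4 (33.2 and 37.8) lay near or below the background level. Extraembryonic endoderm markers summed to 6087 induced and 7255 untreated on day 5, with Afp and Foxa3 below background on every array. Sparc was most of this sum, at 5657 induced and 6208 untreated. Sox7 was 3.72-fold lower under induction on day 5, at 166.5 against 756. Dab2 read 180 against 215 and Ttr 42.0 against 34.65, so the sum mostly shows Sparc. Trophoblast markers summed to 269 induced and 451 untreated, with Elf5 and Ascl2 below background on every array. Of the others Plac1 was lower under induction on day 5, at 31.9 against 285. Tfap2c (164 against 117) and Krt7 (44.2 against 19.6) were higher, so the sum does not show their direction. The part of these cell types in the day 5 differences of Ago1, Ago2 and Lin28a was not tested.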

How the data were processed

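RNA was hybridised to 6 Affymetrix MOE430 2.0 arrays, 1 for each treatment and day. The deposited values were linear intensities, 1 per probe set, that the authors had obtained with the dChip software by normalization across arrays and model fitting. The dChip version is not given in the sources used here, and no detection calls were used. The number of arrays limits the precision. Only the 34945 of 45037 probe sets with a single gene symbol were used, leaving out 932 with several and 9160 with none.

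Each gene was read by its brightest probe set, as log2(intensity + 50). A gene entered the tests with at least 1 array at or above 80.1, the median gene value, and 9997 did. The background level of 36.7 is the 95th percentile over 78 receptor genes of smell and taste. Tests used limma 3.58.1 in R 4.3.3, with lmFit, eBayes with an intensity trend, two-sided p and Benjamini-Hochberg adjustment at 0.05 over all genes tested. Induction was fitted with day as a factor (2 residual and 3.05 prior degrees of freedom), as was day 5 minus day 3 with treatment, and treatment by linear day was added as a product term (1 residual degree of freedom). In these fits the spread is the departure from an effect that is equal on all days, or equal in both treatments. GEO's design text names 6 dishes but does not say which dish gave which array. With 1 array per treatment and day, this departure cannot be split into technical spread, dish differences and effects that change with day. The p-values measure nothing beyond that departure. Within a day there is 1 array per treatment, hence no test, and 1.5-fold was used for counts.

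The 10 genes and the lists were chosen with earlier results of these data known. By rule, the text names all 10 with every probe set, listed genes that passed a test, the 4 of each list with the largest mean difference, the 2 with the largest change over time, and the 3 genes most like each member, given in part. The lists held 12 processing partners, 18 silencing effectors, 6 tailing and decay factors and 18 literature let-7 targets, of which 10, 15, 6 and 15 were tested. Alternatives were another pseudocount, no filter, the mean of all probe sets, quantile normalization, leaving out a day, no day block, treatment by linear day added to the induction fit and, chosen after seeing the data, the next brightest probe set.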

Additional observations from a re-analysis of the deposited data

How the results depend on the processing

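Log2 estimates follow, with the cause of each change not tested. No member passed the test for induction under any alternative in which it was run. For induction, the mean of all probe sets gave -0.098 for Xpo5, and the next brightest probe set gave -0.031 for Drosha, -0.26 for Xpo5 and 0.056 for Tarbp2. Without day 3 Dicer1 was at 0.016, without day 4 Xpo5 was at -0.027 and Dicer1 at 0.0043, and without day 5 Lin28a was at -0.10 and Trim71 at 0.020. For day 5 minus day 3, the next brightest probe set gave -0.37 for Ago2 and 0.041 for Trim71. For the change of the difference per day, the mean of all probe sets gave 0.011 for Drosha, -0.0095 for Xpo5 and -0.043 for Dicer1, and the next brightest gave 0.036 for Dgcr8, -0.12 for Xpo5 and -0.14 for Dicer1. Among all genes, a pseudocount of 100 called 11 for treatment by day, leaving out day 5 called 2 for induction, and adding treatment by linear day called 145 for induction at day 4. Without day 4, 2454 genes and 1 member, Tarbp2, were called between days 3 and 5. With the next brightest probe sets, 2 members were past 1.5-fold on day 5.

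Ago2 kept its lower sign and Ago1 its higher sign under induction in all alternatives run for them. With 1 array per treatment and day, daily differences carry no error, and Ago1 rests on 1 probe set and mostly on day 5.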
